A study of Mus musculus with 4 samples.

Results

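Nonclassical MHC class I genes (class Ib) were described in 4 mouse B16 melanoma tumors. The 10 genes were chosen by symbol, as H2-Q4, H2-Q6, H2-Q7, H2-Q10, H2-T22, H2-T23, H2-T24, H2-M2, H2-M3 and Cd1d1. All 10 stood in every count table, among 25239 symbols. RNA-seq was done on tumor tissue, with 1 library per group. B16, a melanoma line derived from C57BL/6 mice, was implanted under the skin of B6 mice, which were treated on day 7. All groups received CTX, a drug whose name the labels do not expand, intraperitoneally 1 day before the step called ACT. Tumors were taken 12 days after ACT. In the TRP-1MV group, TRP-1 T cells carrying MV were given intravenously. MV is written MYXV in the table headers, the usual abbreviation of myxoma virus, a poxvirus of rabbits. In the MV (L.i.t.) group, named here the MV left tumor, free MV was injected into the left tumor and TRP-1 T cells were given intravenously. The remote tumor (no MV) was the uninjected right tumor of that same treatment group. In the CTX group, PBS was injected into the left tumor, and neither T cells nor virus was given. The protocol also mentions a group given TRP-1 T cells alone, for which no table was used here, so virus and transferred T cells cannot be told apart against CTX.

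Class I molecules are cell surface proteins of a heavy chain, which in most cases pairs with beta-2 microglobulin. The classical molecules H2-K and H2-D are highly variable between individuals and present peptides to CD8 T cells. Nonclassical molecules vary little, are often restricted to certain tissues, and present narrow sets of ligands. Qa-1, M3 and CD1d are known for display to receptors of NK cells and of innate-like T cells. Interferons, NF-kB and the transactivator NLRC5 raise transcription of many class I genes.

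Each library held 12375526 to 21790759 counted reads. Levels below are TMM-scaled CPM, that is, read counts per library total after a scaling that balances the libraries. The protocol gives n = 2, but a single count column stood for each tumor, and pooling of mice is not stated. No spread between tumors could be had, and no test was made. Each log2 ratio has an exact 95% interval that covers counting error only. A gene is called higher or lower where its ratio was at least 2 and this interval excluded 1. Melanocyte markers summed to 5379 CPM in the TRP-1MV tumor and 5743 CPM in the MV left tumor, against 25141 CPM in the remote tumor and 24712 CPM in the CTX tumor. The T cell markers summed to 187, 190, 8.59 and 8.40 CPM in the same order of tumors, and macrophage markers to 1229, 832, 72.5 and 58.6 CPM. Among macrophage markers, C1qa moved little, at 17.0, 13.5, 12.3 and 11.7 CPM, and was not called against CTX. In bulk tissue, fewer cells of a type and less RNA per cell cannot be told apart.

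Promoters of 5 members are shown because class I transcription is known to run through short motifs close to the start site. Of the 10 genes, 8 matched the RefSeq promoter table (GRCm38.p6), which holds 250 bases before to 50 bases after each start site. Searched on both strands were GGGNNNNCCC, a palindrome bound by NF-kB, GAAANNGAAA, a pair of repeats as in interferon response elements, and CCAAT. Capitals mark matches to these 3 motifs, and each sequence reads 5′ to 3′ on the gene's own strand. The windows are chr17:35379367-35379666 (+ strand) for H2-Q4, chr17:35424600-35424899 (+) for H2-Q6, chr17:35469839-35470138 (+) for H2-Q10, chr17:36032652-36032951 (- strand) for H2-T23 and chr17:37483505-37483804 (-) for H2-M2.
H2-Q4: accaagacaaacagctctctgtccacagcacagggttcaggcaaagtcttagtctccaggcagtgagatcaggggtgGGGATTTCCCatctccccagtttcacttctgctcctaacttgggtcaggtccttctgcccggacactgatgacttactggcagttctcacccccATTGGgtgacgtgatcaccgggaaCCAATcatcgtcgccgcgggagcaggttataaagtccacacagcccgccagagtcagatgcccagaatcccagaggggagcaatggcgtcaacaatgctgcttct
H2-Q6: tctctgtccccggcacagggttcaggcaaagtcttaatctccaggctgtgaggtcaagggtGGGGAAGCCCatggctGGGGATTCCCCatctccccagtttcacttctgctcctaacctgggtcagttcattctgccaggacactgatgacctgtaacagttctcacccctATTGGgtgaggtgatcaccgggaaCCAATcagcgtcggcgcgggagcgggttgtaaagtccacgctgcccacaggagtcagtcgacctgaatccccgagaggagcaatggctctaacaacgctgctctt
H2-Q10: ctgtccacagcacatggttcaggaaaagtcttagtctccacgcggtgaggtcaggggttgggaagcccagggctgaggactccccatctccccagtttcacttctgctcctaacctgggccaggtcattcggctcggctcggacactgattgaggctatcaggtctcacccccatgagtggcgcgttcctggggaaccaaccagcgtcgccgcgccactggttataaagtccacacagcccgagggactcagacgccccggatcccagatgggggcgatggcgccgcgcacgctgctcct
H2-T23: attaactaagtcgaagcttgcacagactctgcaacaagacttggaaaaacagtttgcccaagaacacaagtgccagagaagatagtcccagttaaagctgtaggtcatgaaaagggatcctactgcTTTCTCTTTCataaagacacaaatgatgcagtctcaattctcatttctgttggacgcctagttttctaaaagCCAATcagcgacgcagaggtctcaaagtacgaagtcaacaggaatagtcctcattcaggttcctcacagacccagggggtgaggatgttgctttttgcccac
H2-M2: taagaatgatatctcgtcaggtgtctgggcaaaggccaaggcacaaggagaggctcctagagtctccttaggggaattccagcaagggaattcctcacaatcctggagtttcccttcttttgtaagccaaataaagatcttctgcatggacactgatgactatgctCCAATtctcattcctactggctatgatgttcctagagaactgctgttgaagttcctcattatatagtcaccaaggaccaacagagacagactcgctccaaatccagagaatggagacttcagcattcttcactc

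The palindrome was found in 3 of the 8 windows, those of H2-Q4, H2-Q6 and H2-Q7, and in 11.9% of 32851 RefSeq promoter windows. In H2-Q4 and H2-Q6 a match began 173 bases before the start site, and H2-Q6 held another 189 bases before it. The classical genes H2-K1 and H2-D1 also held it. The GAAA pair was found in 2 windows, those of H2-T22 and H2-T23, and in 3.44% of all windows. Neither H2-K1 nor H2-D1 held it. The search took exact letters, so near variants such as tttcacttct were not counted. That variant stood in the windows of H2-Q4, H2-Q6, H2-Q7, H2-Q10 and H2-M3, and also in those of H2-K1 and H2-D1. A window without a match may therefore still hold an interferon response element. CCAAT was found in every member window except that of H2-Q10, in 7 of 8, and in 37.4% of all windows. The window of H2-M2 held CCAAT and neither of the longer motifs. TGACG, the core of cyclic AMP response elements, stood in 5 member windows and 20.8% of all windows, and TATAAA in 2 member windows and 13.6% of all windows. These 2 motifs are not capitalised. The windows of H2-Q4 and H2-Q6 were identical at 78.2% of positions, and that of H2-Q10 was identical to that of H2-D1 at 82.2%. A match describes letters only, and binding was not measured.

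Summed over the 10 genes, the level was 284.86 CPM in the TRP-1MV tumor and 215.04 CPM in the MV left tumor, against 48.73 CPM in the remote tumor and 49.43 CPM in the CTX tumor. The sum was high in the TRP-1MV and MV left tumors and low, at almost the same level, in the other two. The mix of genes differed as well. H2-Q4 made up 34.0% of member reads in the TRP-1MV tumor (exact 95% interval 32.6 to 35.4%) and 35.0% in the MV left tumor (33.3 to 36.8%), against 62.0% in the remote tumor (58.8 to 65.0%) and 61.0% in the CTX tumor (57.8 to 64.1%). H2-Q6 made up 21.8% and 21.9% in the TRP-1MV and MV left tumors, against 2.27% and 2.22% in the remote and CTX tumors. The share of H2-T23 moved least among the 4 leading genes, at 25.1% and 27.9% against 29.4% and 30.9%.

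**Figure D1:**
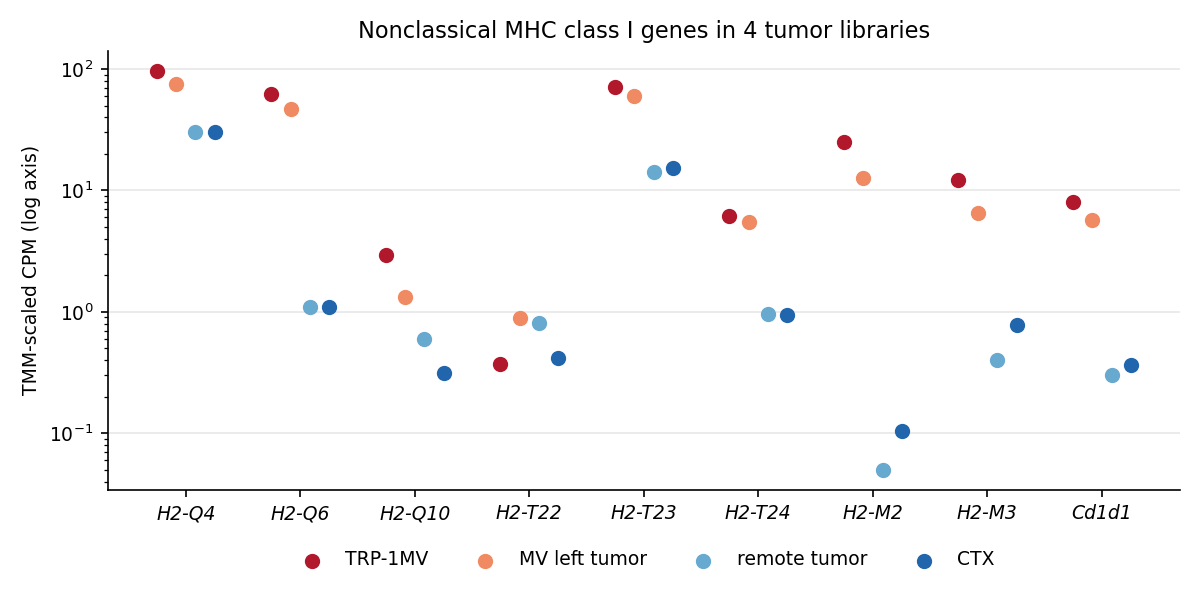
TMM-scaled CPM of each nonclassical class I gene (log axis) in the TRP-1MV, MV left, remote and CTX tumors, 1 library each. H2-Q7, at 0 reads throughout, is not drawn. H2-Q6 reached 62.0 and 47.1 CPM in the TRP-1MV and MV left tumors, against 1.11 and 1.10 CPM in the remote and CTX tumors, while H2-T22 stayed under 1 CPM in all 4.

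Levels were compared between genes as CPM per kilobase of exon, from the GENCODE M21 annotation. In the TRP-1MV tumor the order was H2-Q4 (37.3), H2-Q6 (29.7), H2-T23 (24.7), H2-M2 (16.1), H2-M3 (8.46), Cd1d1 (3.12), H2-T24 (2.82), H2-Q10 (0.671) and H2-T22 (0.109). Counting intervals of neighbours overlapped for Cd1d1 with H2-T24, and for H2-T22 with the unread H2-Q7. In the CTX tumor the order was H2-Q4 (11.6), H2-T23 (5.29), H2-M3 (0.544), H2-Q6 (0.525), H2-T24 (0.430), Cd1d1 (0.142), H2-T22 (0.122), H2-Q10 (0.0720) and H2-M2 (0.0672). From H2-M3 down, each interval there overlapped that of the next gene, so only H2-Q4 and H2-T23 stood apart. On the same per-kilobase scale, H2-K1 reached 168 in the TRP-1MV tumor and 132 in the MV left tumor, against 32.9 in the remote tumor and 30.4 in the CTX tumor. Every nonclassical gene therefore lay below H2-K1 in each tumor.

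Of the Q-region genes, H2-Q4 encodes the Qb-1 chain and H2-Q6 and H2-Q7 belong to the Qa-2 family, some members of which are anchored in the membrane by a lipid. H2-Q4 lies at chr17:35379617-35385290 (+, mm10). It had 1559 reads (96.8 CPM) in the TRP-1MV tumor and 1017 (75.3 CPM) in the MV left tumor, against 601 (30.2 CPM) in the remote tumor and 578 (30.1 CPM) in the CTX tumor. H2-Q4 thus had the highest level of the 10 in each tumor, and it was higher in the TRP-1MV and MV left tumors than in the others. Its log2 ratio to CTX was 1.68 (interval 1.54 to 1.82) in the TRP-1MV tumor and 1.32 (1.17 to 1.47) in the MV left tumor, the smallest among the genes called higher in each.

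H2-Q6, at chr17:35424850-35430055 (+), had 998 reads (62.0 CPM) in the TRP-1MV tumor and 637 (47.1 CPM) in the MV left tumor, against 22 (1.11 CPM) in the remote tumor and 21 (1.10 CPM) in the CTX tumor. It was low in the remote and CTX tumors and was second by level per kilobase in the others, within counting error of H2-T23 in the MV left tumor. Its log2 ratio to CTX was 5.82 (5.20 to 6.52) in the TRP-1MV tumor and 5.43 (4.80 to 6.13) in the MV left tumor. H2-Q7, at chr17:35439155-35443773 (+), had 0 reads in all 4 tumors. The floor of 3 counts equals 0.186, 0.222, 0.151 and 0.156 CPM in the TRP-1MV, MV left, remote and CTX tumors. For counted reads, the exact 95% upper limits of H2-Q7 were 0.0537, 0.0640, 0.0435 and 0.0451 CPM per kilobase in the same order. These set no limit on expression if reads of duplicated loci or of overlapping gene models were left out of the count, which is not stated. H2-Q8 and H2-Q9, its neighbours, were also at 0 in all 4.

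H2-Q10, at chr17:35470089-35474563 (+), encodes a secreted class I molecule made mainly in liver. It had 47 reads (2.92 CPM) in the TRP-1MV tumor and 18 (1.33 CPM) in the MV left tumor, against 12 (0.603 CPM) in the remote tumor and 6 (0.313 CPM) in the CTX tumor. Counts were low throughout, and highest in the TRP-1MV tumor. Against CTX, the log2 ratio was 3.22 (1.99 to 4.74) in the TRP-1MV tumor and 2.09 (0.70 to 3.71) in the MV left tumor. The hepatocyte markers Alb, Apoa1 and Ttr summed to 16.2 and 15.2 CPM in the TRP-1MV and MV left tumors, against 19.5 and 18.9 CPM in the remote and CTX tumors, and none of the 3 was called in either comparison with CTX.

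Of the T-region genes, H2-T23 encodes Qa-1, which shows leader peptides of classical class I chains to the CD94/NKG2A receptor. H2-T23 lies at chr17:36029773-36032855 (-). It had 1151 reads (71.5 CPM) in the TRP-1MV tumor and 812 (60.1 CPM) in the MV left tumor, against 285 (14.3 CPM) in the remote tumor and 293 (15.3 CPM) in the CTX tumor. Its log2 ratio to CTX was 2.23 (2.04 to 2.42) in the TRP-1MV tumor and 1.98 (1.78 to 2.17) in the MV left tumor. H2-T23 was thus high in the TRP-1MV and MV left tumors and low, at a like level, in the remote and CTX tumors.

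H2-T24, at chr17:36005695-36020560 (-), had 99 reads (6.15 CPM) in the TRP-1MV tumor and 75 (5.55 CPM) in the MV left tumor, against 19 (0.955 CPM) in the remote tumor and 18 (0.939 CPM) in the CTX tumor. Against CTX, the log2 ratio was 2.71 (1.98 to 3.52) in the TRP-1MV tumor and 2.56 (1.81 to 3.39) in the MV left tumor. It followed the same split at a lower level. H2-T22, at chr17:36037128-36042747 (-), encodes a molecule that some gamma-delta T cell receptors bind. H2-T22 had 6 reads (0.373 CPM) in the TRP-1MV tumor and 12 (0.888 CPM) in the MV left tumor, against 16 (0.804 CPM) in the remote tumor and 8 (0.417 CPM) in the CTX tumor. By CPM, H2-T22 was highest in the MV left tumor and lowest in the TRP-1MV tumor. With 6 to 16 reads per tumor, neither this order nor a split like that of the other members with reads could be resolved. The log2 ratio to CTX was -0.16 (-1.97 to 1.55) in the TRP-1MV tumor and 1.09 (-0.32 to 2.59) in the MV left tumor, and differences of this size were not detectable at this depth.

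Of the M-region genes, H2-M3 presents peptides that begin with N-formyl methionine, as bacterial and mitochondrial proteins do. H2-M3 lies at chr17:37270220-37274484 (+). It had 196 reads (12.2 CPM) in the TRP-1MV tumor and 88 (6.51 CPM) in the MV left tumor, against 8 (0.402 CPM) in the remote tumor and 15 (0.782 CPM) in the CTX tumor. The log2 ratio to CTX was 3.96 (3.20 to 4.82) in the TRP-1MV tumor and 3.06 (2.26 to 3.95) in the MV left tumor. H2-M3 was highest in the TRP-1MV tumor, and the low counts in the remote and CTX tumors overlapped within counting error.

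H2-M2, at chr17:37480851-37483552 (-), had 403 reads (25.0 CPM) in the TRP-1MV tumor and 170 (12.6 CPM) in the MV left tumor, against 1 read (0.0502 CPM) in the remote tumor and 2 (0.104 CPM) in the CTX tumor. Against CTX, the log2 ratio was 7.91 (6.04 to 10.96) in the TRP-1MV tumor and 6.91 (5.04 to 9.97) in the MV left tumor. These ratios were the largest of the 10 genes, with wide intervals because CTX had 2 reads. Per kilobase, H2-M2 stood next after H2-T23 in the TRP-1MV and MV left tumors and was lowest of the 9 genes with reads in CTX, where its interval overlapped that of H2-Q10.

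Cd1d1, the only member outside the MHC, lies at chr3:86995834-86999441 (-) and encodes CD1d, which presents lipids to NKT cells. It had 129 reads (8.01 CPM) in the TRP-1MV tumor and 77 (5.70 CPM) in the MV left tumor, against 6 (0.302 CPM) in the remote tumor and 7 (0.365 CPM) in the CTX tumor. The log2 ratio to CTX was 4.46 (3.37 to 5.80) in the TRP-1MV tumor and 3.96 (2.85 to 5.33) in the MV left tumor. Cd1d1 was thus low in the remote and CTX tumors, with fewer than 10 reads in each, and higher in the other pair.

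In the TRP-1MV tumor against CTX, 8 of the 9 genes with a mean of at least 10 reads were higher and 0 were lower. Of all 13357 genes compared, 18.5% were higher and 11.7% lower. The members' median log2 ratio was 3.22, beside -0.07 over all genes. In the MV left tumor against CTX, 8 of 9 were again higher and 0 lower, where 18.1% of all genes were higher and 11.1% lower, with medians of 2.56 and -0.05. Both comparisons use the same CTX library. H2-M2, Cd1d1, H2-Q10 and H2-T22 had fewer than 10 reads in CTX, so they met the minimum through other tumors, and these counts are a description.

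**Figure D2:**
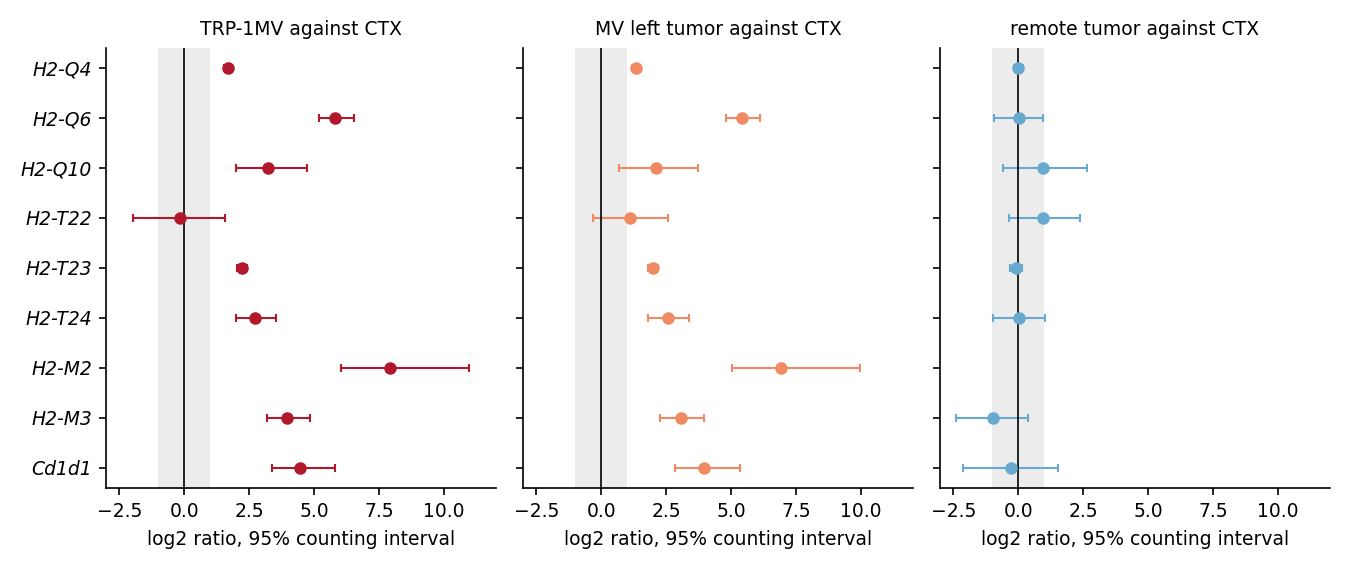
Log2 ratio of CPM to the CTX tumor for each nonclassical class I gene, with exact 95% counting intervals, in panels for the TRP-1MV, MV left and remote tumors. The grey band marks ratios under 2-fold. Ratios of H2-M2 reached 7.91 and 6.91 in the TRP-1MV and MV left tumors, and intervals of the remote tumor all include 0.

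In the remote tumor against CTX, the question was whether these genes moved in a tumor that received no virus while its partner did. Of 8 genes with a ratio, 0 were higher and 0 lower, where 0.468% of all 13030 genes compared were higher and 0.253% lower. H2-Q4 had a log2 ratio of 0.00 (-0.16 to 0.17) and H2-T23 of -0.09 (-0.33 to 0.15), so a change of 2-fold lay outside both intervals. H2-Q6 had 0.01 (-0.92 to 0.95) and H2-T24 0.02 (-0.98 to 1.04). For H2-Q10 at 0.95 (-0.58 to 2.65), H2-T22 at 0.95 (-0.36 to 2.38), H2-M3 at -0.96 (-2.41 to 0.37) and Cd1d1 at -0.28 (-2.12 to 1.52), the counts left a wide range. H2-M2 had 1 and 2 reads and was given no ratio.

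In the MV left tumor against the remote tumor of the same treatment group, 8 of 9 genes were higher and 0 lower, where 18.6% of all genes were higher and 11.7% lower. The median log2 ratio was 2.54, beside -0.04 over all genes. H2-M2, Cd1d1 and H2-M3 had 1, 6 and 8 reads in the remote tumor, so they met the minimum through other tumors. These counts are a description. H2-Q4 had 1.32 (1.17 to 1.47), H2-T23 had 2.07 (1.87 to 2.27) and H2-Q6 had 5.41 (4.80 to 6.10). H2-M2, against 1 read in the remote tumor, had 7.97 (5.47 to 13.28). H2-Q10, at 1.14 (0.01 to 2.33), was called with an interval that all but touched 0, and H2-T22 at 0.14 (-1.07 to 1.32) was not called. Whether the left and right tumors came from the same mice is not stated for these libraries.

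In the TRP-1MV tumor against the MV left tumor, carriage of virus by T cells was set against injection of free virus. Of the 9 genes, 1 was higher, H2-Q10, with a log2 ratio of 1.13 (0.32 to 2.00), and 0 were lower. Of all 13348 genes compared, 0.562% were higher and 0.217% lower. The median log2 ratio was 0.39, beside -0.01 over all genes. H2-M2 had 0.99 (0.73 to 1.26) and H2-M3 0.90 (0.53 to 1.28), both short of the 2-fold line. Cd1d1 had 0.49 (0.07 to 0.92), H2-Q6 0.39 (0.25 to 0.54), H2-Q4 0.36 (0.25 to 0.48) and H2-T23 0.25 (0.12 to 0.38). H2-T24 had 0.15 (-0.30 to 0.60) and H2-T22 had -1.25 (-2.95 to 0.27). The 6 macrophage markers had a median log2 ratio of 0.57 in this comparison and the 6 T cell markers of -0.03, and none of either list was called. Of 3 measured neutrophil markers, 1 was higher, S100a9, with 140 reads in the TRP-1MV tumor and 51 in the MV left tumor and a log2 ratio of 1.20 (0.73 to 1.70). The part of macrophage and neutrophil content in the members' differences was not tested.

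**Figure D3:**
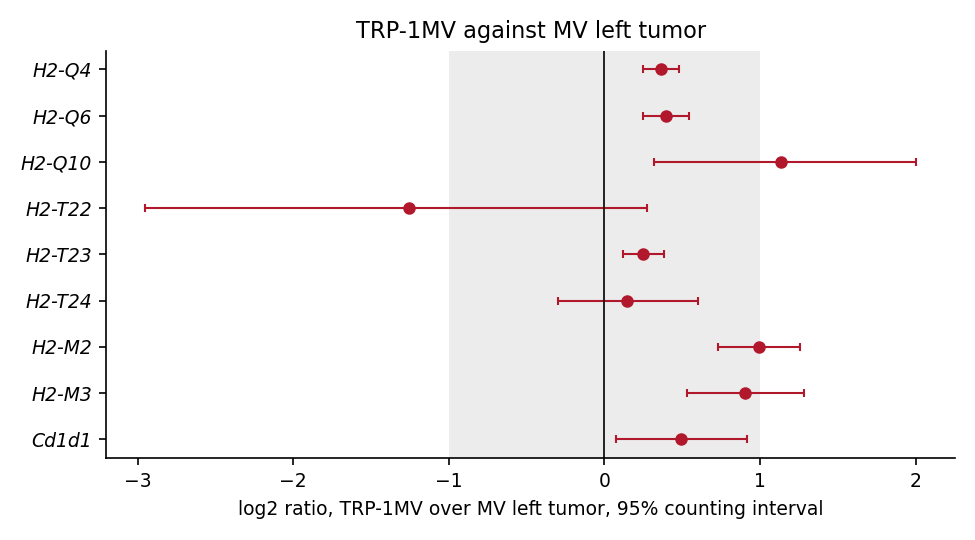
Log2 ratio of CPM in the TRP-1MV tumor over the MV left tumor for each nonclassical class I gene, with exact 95% counting intervals. The grey band marks ratios under 2-fold. H2-Q10 lies past the 2-fold line at 1.13, H2-M2 and H2-M3 lie just short of it at 0.99 and 0.90, and H2-T22 lies below 0 with a wide interval.

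Reads were also set against those of the classical genes H2-K1 and H2-D1 and of B2m in the same library, which needs no scaling between libraries. What this shows depends on the gene chosen. H2-K1 itself had log2 ratios to CTX of 2.47 in the TRP-1MV tumor and 2.12 in the MV left tumor. Per 1000 H2-K1 reads, H2-T23 had 145 reads in the TRP-1MV tumor and 155 in the MV left tumor, against 171 in the CTX tumor. The log2 ratio of these ratios was -0.24 (-0.44 to -0.04) in the TRP-1MV tumor and -0.15 (-0.36 to 0.06) in the MV left tumor. Per H2-D1 read, H2-T23 had log2 ratios to CTX of 0.59 (0.39 to 0.80) in the TRP-1MV tumor and 0.75 (0.53 to 0.96) in the MV left tumor, and per B2m read of 1.27 (1.08 to 1.46) and 1.33 (1.13 to 1.53). H2-T23 thus had about the ratio of H2-K1 and larger ratios than H2-D1 and B2m. H2-Q4 had 196 and 194 reads per 1000 in the TRP-1MV and MV left tumors, against 338 in CTX, a log2 ratio of -0.79 (-0.94 to -0.63) and -0.80 (-0.97 to -0.63). Per H2-D1 read, H2-Q4 had 0.05 (-0.11 to 0.21) and 0.09 (-0.08 to 0.26), and per B2m read 0.73 (0.58 to 0.87) and 0.67 (0.52 to 0.82). H2-Q4 was therefore lower relative to H2-K1, close to H2-D1 and higher relative to B2m.

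H2-Q6 had 126 and 121 reads per 1000 H2-K1 reads in the TRP-1MV and MV left tumors, against 12.3 in CTX, with log2 ratios of 3.35 (2.73 to 4.06) and 3.30 (2.67 to 4.01). H2-M2 had 50.7 and 32.4 per 1000 in the same tumors, against 1.17 in CTX, with log2 ratios of 5.44 (3.57 to 8.49) and 4.79 (2.91 to 7.85). Cd1d1 had log2 ratios of 1.99 (0.90 to 3.33) and 1.84 (0.72 to 3.20), and H2-M3 of 1.49 (0.73 to 2.36) and 0.93 (0.13 to 1.83). These 4 genes thus had larger ratios to CTX than H2-K1 in both tumors, and larger ones than H2-D1 and B2m as well. Per H2-D1 read, H2-Q6 had 4.19 (3.56 to 4.89) and 4.20 (3.57 to 4.91), H2-M2 6.27 (4.41 to 9.32) and 5.69 (3.81 to 8.74), Cd1d1 2.82 (1.73 to 4.17) and 2.74 (1.62 to 4.10), and H2-M3 2.33 (1.56 to 3.19) and 1.83 (1.02 to 2.73). Per H2-K1 read, intervals of H2-T24 and H2-Q10 included 0 in both tumors, while per H2-D1 read H2-T24 had 1.08 (0.34 to 1.89) and 1.33 (0.57 to 2.17). Per H2-K1 read, H2-T22 had a log2 ratio of -2.63 (-4.44 to -0.91) in the TRP-1MV tumor and -1.03 (-2.45 to 0.46) in the MV left tumor. In the TRP-1MV tumor it had -1.80 (-3.61 to -0.08) per H2-D1 read and -1.12 (-2.93 to 0.60) per B2m read. These values rest on 6 reads in the TRP-1MV tumor and 8 in CTX, and on sequence shared with other genes, described below. Between the TRP-1MV and MV left tumors, H2-M2 per H2-K1 differed by 0.65 (0.38 to 0.92) and H2-M3 by 0.56 (0.18 to 0.94). H2-Q10, the only member called in that comparison, had 0.79 (-0.03 to 1.66) per H2-K1 read, an interval that included 0. It had 0.73 (-0.09 to 1.60) per H2-D1 read and 0.82 (0.01 to 1.70) per B2m read.

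**Figure D4:**
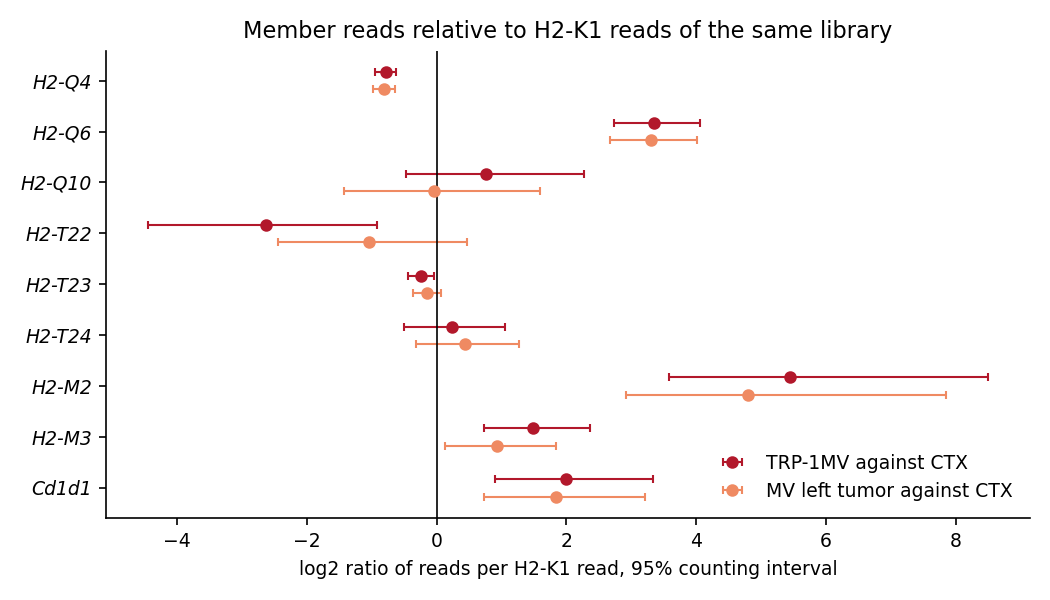
Reads of each nonclassical class I gene per 1000 H2-K1 reads of the same library, set against CTX as a log2 ratio with exact 95% counting intervals. H2-M2 and H2-Q6 lie highest, at 5.44 and 3.35 in the TRP-1MV tumor, H2-T23 lies near 0 and H2-Q4 lies below it at -0.79.

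These genes resemble each other in sequence, and how the authors' counting treated reads that fit several genes is not given in the sources used here. In GENCODE transcripts, the share of 50-base stretches also found in another gene was 53.5% for H2-T22, 36.4% for H2-Q4, 35.0% for H2-Q6, 26.5% for H2-Q7, 19.1% for H2-Q10, 19.1% for Cd1d1 and 14.5% for H2-T23. It was 3.17% for H2-T24, 1.62% for H2-M2 and 0.576% for H2-M3, so values of these 3 rest on nearly unique sequence. H2-T22 shared 31.2% of its 50-base stretches with H2-T10 and 26.5% with A930015D03Rik. H2-T10 had 71 and 55 reads in the TRP-1MV and MV left tumors, against 12 and 9 in the remote and CTX tumors. A930015D03Rik had 3 and 4 reads in the TRP-1MV and MV left tumors, against 0 in both others. Of its 100-base stretches, H2-T22 shared 6.92% with H2-T10 and a larger part with A930015D03Rik. The part of either gene in the H2-T22 counts was not tested. The summed reads of H2-T22, H2-T10 and the unread H2-T9 had log2 ratios to CTX of 2.43 in the TRP-1MV tumor and 2.48 in the MV left tumor. This sum was called higher in both. In these 2 tumors most of its reads were of H2-T10, so it does not show whether H2-T22 itself was higher. The call for H2-T22 is uncertain, since it rests on few reads and on much shared sequence. H2-Q6 shared 13.9% of its 50-base stretches with H2-Q7 and 12.3% with H2-Q4. It also shared 5.35% with D10Wsu102e and 4.76% with Efr3a. H2-Q4 shared 15.3% with Gm11131, a symbol not in the count tables, 9.68% with H2-Q6 and 3.01% with Tyms. The shares above therefore include genes outside the class I family. None of H2-Q8, H2-Q9 and H2-T9 was among the leading sharing partners of any member, although the count tables hold these symbols. Sharing of H2-Q6, H2-Q7 and H2-T22 may therefore be understated. In H2-Q7, 73.5% of 50-base stretches were in no other gene of the GENCODE set searched, and it still had 0 reads. The part of shared reads in this was not tested. The paralog Cd1d2 had 3 and 5 reads in the TRP-1MV and MV left tumors, against 0 in both others.

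**Figure D5:**
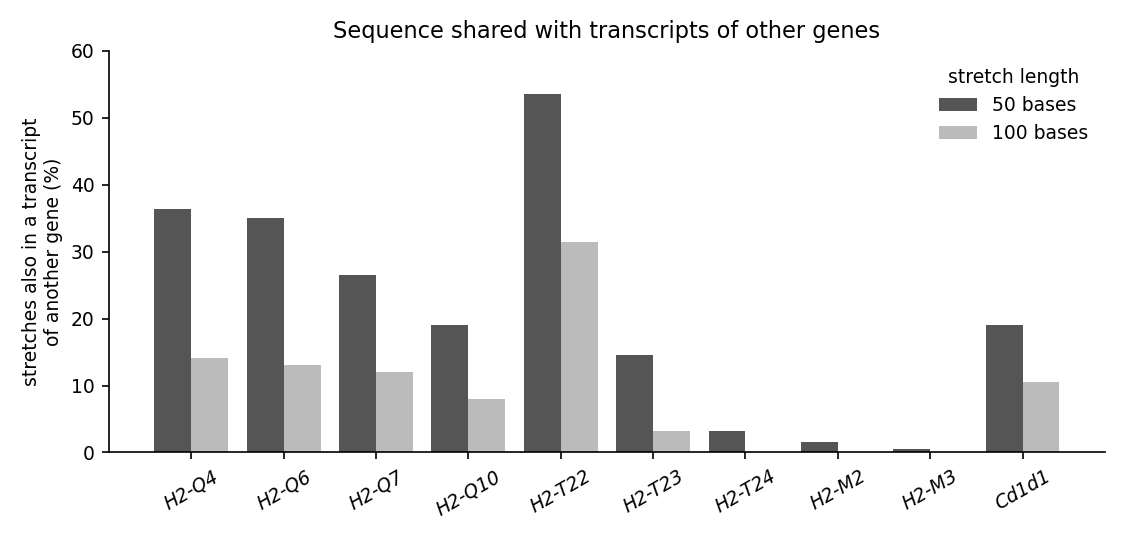
Percent of 50-base and of 100-base stretches in each gene's transcripts that also stand in transcripts of another gene. H2-T22 shares most at 53.5% and 31.5%, and H2-M3 least at 0.576% of 50-base stretches.

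Genes that load or resemble these molecules did not all move with them. For the lists below, the share of all genes serves as the background. Against CTX it was 18.5% higher and 11.7% lower in the TRP-1MV tumor, and 18.1% and 11.1% in the MV left tumor. Of 16 measured classical and peptide loading genes, 8 were higher and 0 lower against CTX in both the TRP-1MV and the MV left tumor, with median log2 ratios of 1.14 and 0.94, and 0 of 16 were called in the remote tumor. Psmb8, a subunit of the immunoproteasome, had 3.35 in the TRP-1MV tumor and 3.27 in the MV left tumor, and the peptide transporter Tap1 had 1.86 and 1.79. H2-D1 had 1.63 and 1.23. B2m, the shared light chain, had 0.96 and 0.65 and was not called. The chaperones Canx at -0.57 and -0.46 and Pdia3 at -0.51 and -0.47 had the lowest ratios.

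Of 27 other nonclassical and class I-like genes, 8 were measured. In each virus-treated tumor 3 were higher and 2 lower against CTX, with median log2 ratios of -0.53 in the TRP-1MV tumor and -0.33 in the MV left tumor. H2-Q5 had 126 and 78 reads in the TRP-1MV and MV left tumors, against 0 and 1 in the remote and CTX tumors. Mr1, which presents vitamin B metabolites to MAIT cells, had 13.4 and 14.0 CPM in the TRP-1MV and MV left tumors, against 31.5 and 31.1 CPM in the remote and CTX tumors. Its log2 ratio to CTX was -1.21 (-1.45 to -0.99) in the TRP-1MV tumor and -1.15 (-1.40 to -0.92) in the MV left tumor, which was lower in each. Hfe, a regulator of iron uptake, was also lower, at -1.02 and -1.31. Mill2 had 7 and 4 reads in the TRP-1MV and MV left tumors, against 16 and 14 in the remote and CTX tumors, and was not called. Of the NKG2D ligands, 2 were measured. Ulbp1 was higher, at 2.44 and 2.41, and Raet1d was not called.

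Of 9 genes for lipid loading of CD1d and lysosomal function, 2 were higher in the TRP-1MV tumor against CTX, Psap at 1.30 and Gla at 1.01. In the MV left tumor 0 were higher. The medians were 0.28 in the TRP-1MV tumor and 0.02 in the MV left tumor. Of all genes, 18.5% and 18.1% were higher in these tumors, so the count for the TRP-1MV tumor is near that share. In the MV left tumor the lowest were Ctsl at -0.30 and Ap3b1 at -0.23. Of 14 receptor and innate-like T cell genes, 5 were measured, and all 5 were higher in both tumors. These 5 were receptor or coreceptor genes. The innate-like T cell genes Zbtb16, Sox13 and Il17a did not meet the minimum. Trdc, Tcrg-C1, Tcrg-C2 and Tcrg-C4 were not in the count tables, so innate-like T cell genes could not be compared. Cd8a had 4.07 and 4.30, the inhibitory receptor gene Pirb 4.50 and 4.01, Cd160 3.31 and 3.38, and Klrd1, which encodes CD94, 3.13 and 3.50. Klrc1, which encodes NKG2A, had 19 reads in each of the TRP-1MV and MV left tumors, against 0 in the remote tumor and 3 in the CTX tumor. Its log2 ratio to CTX was 2.91 (1.15 to 5.31) in the TRP-1MV tumor and 3.17 (1.40 to 5.57) in the MV left tumor. The 3 NK cell markers summed to 14 and 13 reads in the TRP-1MV and MV left tumors, against 5 and 6 in the remote and CTX tumors, and none met the minimum.

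Of 17 genes of class I transactivation, 8 were higher in the TRP-1MV tumor and 7 in the MV left tumor against CTX, 0 were lower, and the medians were 0.83 and 0.77. Ifng had 625 and 531 reads in the TRP-1MV and MV left tumors, against 3 and 2 in the remote and CTX tumors. Irf7 had log2 ratios of 3.53 and 2.95, Rfx5 of 2.03 in both, and Nlrc5 of 1.21 and 1.08. Irf9 at -0.37 and -0.52 and Rfxank at -0.12 and -0.20 had the lowest. In the TRP-1MV tumor against the MV left tumor, none of the genes in these lists was called.

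Summed markers of B cells, dendritic cells, neutrophils and endothelium were higher where the members were, though not every marker was. B cell markers summed to 43.5 and 41.2 CPM in the TRP-1MV and MV left tumors, against 0.653 and 0.522 CPM in the remote and CTX tumors, where Ms4a1 was at 0 in CTX and Cd79b at 0 in the remote tumor. Dendritic cell markers summed to 64.5 and 49.6 CPM against 8.94 and 9.59 CPM, and neutrophil markers to 20.6 and 13.2 CPM against 1.31 and 0.730 CPM, in the same order of tumors. Most of the dendritic cell sum was Itgax, at 49.7 and 31.7 CPM in the TRP-1MV and MV left tumors. Zbtb46 was not called against CTX, and Xcr1 and Clec9a did not meet the minimum. Endothelial markers summed to 17.6 and 16.4 CPM against 6.43 and 6.52 CPM. Of these, Cdh5 was not called, at 2.55 and 2.66 CPM against 1.76 and 2.56 CPM. The part of these cells in the members' levels was not tested.

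The genes whose profile over the 4 libraries lay nearest each member were taken from 11459 genes with a mean of at least 50 reads, by Euclidean distance of centred log2 (CPM + 0.5). With 4 points this is a description. Nearest to H2-Q4 were Prkcd, at a distance of 0.04, and Lgals3, and nearest to H2-T23 were Pqlc3 and Ly86. H2-Q6 lay nearest to B4galnt1, at 0.09, and Cd33. H2-M2 lay nearest to Ccl2, at 0.16, which had 102 and 59.1 CPM in the TRP-1MV and MV left tumors, against 1.71 and 2.14 CPM in the remote and CTX tumors, and then to Fscn1. Nearest to Cd1d1 were Ptk2b and Evi2a, to H2-T24 Bach2 and Ifi27l2a, to H2-M3 Serpinb8 and Trim30d, to H2-Q10 Naaa and Cebpb, and to H2-T22 Neurl2 and Gpt.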

How the data were processed

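RNA-seq was measured in 4 tumor libraries, 1 per group. The authors deposited raw counts, 1 whole number per library for each of 25239 gene symbols. HISAT2, featureCounts and mm10 are named in the submitters' processing notes. Versions, annotation, strand and the handling of multi-mapping reads are not given in the sources used. Groups came from sample titles and treatment labels.

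TMM factors from edgeR 4.0.16 (R 4.3.3) turned counts into CPM. Genes with a mean count of at least 10 were compared. Ratios have exact conditional binomial (Clopper-Pearson) 95% intervals (scipy 1.17.1, numpy 2.4.6, pandas 2.3.3, Python 3.11.15), which cover counting error only. A library at 0 was set to a floor of 3 counts, and no ratio was given where both had 3 reads or fewer. The call rule, a ratio of at least 2 with an interval that excludes 1, was also run on simulated counts. These were drawn with counting error only, so the run cannot show how the rule does with spread between tumors. Intervals in levels are exact Poisson, and shares of reads have exact binomial intervals. Sequence sharing was counted in GENCODE M21 transcripts. Figures were drawn with matplotlib 3.10.9. Alternatives were DESeq2 1.42.0 size factors, total counts, a housekeeping list, TMM without ribosomal protein genes, other minimum counts, thinning, summed paralogs and a ratio of at least 4.

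Members, lists and call rules were chosen with earlier results of these data known. Of each pathway list, the 2 highest and 2 lowest ratios of the MV left tumor to CTX are named, plus H2-K1, H2-D1, B2m and Nlrc5. Tap1, Rfx5, Klrd1 and Mr1 were named after their values were seen, and ratios per read of H2-K1, H2-D1 and B2m were added then.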

Additional observations from a re-analysis of the deposited data

How the results depend on the processing

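No paired analysis was possible because no group had a second library. In the TRP-1MV tumor against the MV left tumor, the count of higher members was 1 as reported. It was 2 with DESeq2 size factors and 2 with counts thinned to the smallest total, where H2-M2 joined H2-Q10. It was 0 with a mean count of at least 50 and 0 with a ratio of at least 4. The 4-fold rule left 7 members higher in the TRP-1MV tumor against CTX, without H2-Q4, 6 in the MV left tumor against CTX, without H2-Q4 and H2-T23, and 6 in the MV left tumor against the remote tumor, without H2-Q4 and H2-Q10, in place of 8 each. The share of all genes past the 4-fold rule was not counted. The median for the TRP-1MV tumor against CTX was 3.96 with a mean count of at least 50, in place of 3.22. The median log2 ratio of the MV left tumor against the remote tumor was 2.54 as reported, 3.38 with housekeeping scaling and 4.02 with a mean count of at least 50. Of 259 member ratios recomputed, 241 stayed within the interval as reported and 18 did not. The sign changed in 9, none of which was called as reported. In the TRP-1MV tumor against CTX, H2-T22 had -0.16 as reported, 0.08 with total counts, 0.56 with housekeeping scaling and 2.43 with summed paralogs. Most reads of that sum in the TRP-1MV tumor were of H2-T10. The other 6 were ratios of H2-Q4, H2-Q6, H2-T24 and Cd1d1 in the remote tumor against CTX, between -0.25 and 0.43.

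Scaling on housekeeping genes added 0.77 to each log2 ratio of the MV left tumor to CTX and 0.72 to each of the TRP-1MV tumor to CTX, and total counts added 0.24 to both. Over all genes, the MV left tumor against CTX had 2411 higher and 1488 lower genes as reported, 2955 and 890 with total counts, and 5010 and 313 with housekeeping scaling. For the TRP-1MV tumor against CTX these were 2476 and 1559, 2973 and 931, and 4708 and 366. For the MV left tumor against the remote tumor they were 2483 and 1567, 3106 and 902, and 5525 and 284. For the remote tumor against CTX they were 61 and 33, and 52 and 43 with housekeeping scaling. The cause was not tested. H2-Q10 lost its call against the remote tumor with thinning, at 1.12 (-0.21 to 2.62), and H2-T22 was called higher than CTX in the MV left tumor with housekeeping scaling, at 1.86. Counts under 10 reads limit H2-Q10, H2-T22, H2-M2 and Cd1d1 in CTX, and H2-M2, H2-M3 and Cd1d1 in the remote tumor.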
